A study of Mus musculus with 18 samples.

Results

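Fezf1, Fezf2, Otx1, Six3, Hesx1, Lhx2, Rax, Emx2 and Foxb1 are transcription factor genes of the forebrain and anterior neural plate, listed by name and followed over all 18 libraries by day and by doxycycline (Dox). They are 9 of the 55401 gene IDs in each table. Of the 9 genes, 8 passed the filter on low counts and were tested, and Six3 did not pass. The cells were the RHKI line, derived from the E14Tg2a mouse embryonic stem cell line, grown in 2i/LIF medium, and every group carried the HA-Rnaseh1 knock-in, which encodes a tagged form of the enzyme RNase H1. The Dox groups had 500 ng/ml Dox for 48 hours before the cells entered gastruloid differentiation. Continued Dox during differentiation is not stated. The control groups were the same line without that treatment. Poly(A) RNA was sampled at day 0 (0 hours), day 3 (72 hours) and day 5 (120 hours), with 3 libraries in each of the 6 groups. All libraries came from 1 line, the labels give the replicate number as the batch, and they do not say that replicates were separate cultures, so p-values measure the spread between these libraries only.

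The anterior neural plate arises where Wnt, Nodal and BMP signals are held low, and its regions are set out by homeobox and zinc finger factors before the telencephalon, eye field and hypothalamus form. Gastruloids, grown from aggregated stem cells, form trunk and tail tissues along a head-to-tail axis, and standard gastruloids are known to lack most of the brain. RNase H1 removes RNA that is paired with DNA, as in R-loops, and the study's title concerns R-loops and the choice of lineages during differentiation.

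Library totals ranged from 25748897 to 38128366 estimated counts. Rnaseh1 ran from 19.3 to 30.3 CPM (counts scaled to library size with TMM factors) in the 9 control libraries and from 53.7 to 172 in the 9 Dox libraries. It was 5.39-fold higher with Dox at day 0, 2.90-fold at day 3 and 2.90-fold at day 5 (edgeR adjusted p = 4.07e-13, 9.88e-10 and 1.26e-09), and every Dox library lay above every control library. Day 0 Dox replicate 2 stood apart in ribosomal RNA, at 4.76% of its counts against 0.144 to 0.483% in the other libraries. Summed over 6 naive stem cell markers, the level ran from 1070 to 1180 TPM (a level scaled for transcript length and library) at day 0 and from 2.74 to 5.58 TPM at day 5. Summed over 5 neural progenitor markers, it ran from 15.9 to 22.2 TPM at day 0 and from 731 to 820 TPM at day 5. These are bulk libraries, in which fewer cells of a type and less RNA per cell cannot be told apart.

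Only Foxb1 among the 9 genes was abundant during differentiation. Foxb1 is a forkhead factor known from the caudal diencephalon and mammillary body and also from the hindbrain and spinal cord. Its mean level was 60.3 ± 3.88 TPM in day 3 control libraries and 40.8 ± 1.16 TPM in day 5 control libraries (SD, n = 3 for each group mean here and below). The level of all 9 genes summed, Foxb1 included, was 56.7 to 64.0 TPM at day 3 and 43.4 to 45.1 TPM at day 5 in control libraries. No other member had a mean above 2.48 TPM in any day 3 or day 5 group. The levels therefore go against reading the 9 genes as 1 forebrain profile in these libraries, and they are described gene by gene.

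The order of levels changed with the day. In day 0 control libraries the order in TPM was Hesx1 (4.13 ± 1.93), Lhx2 (2.77 ± 0.712), Otx1 (0.660 ± 0.291), Rax (0.353 ± 0.176) and then 5 genes at or below 0.0667. Hesx1 and Lhx2 overlapped between libraries there, as did Otx1 and Rax, while Lhx2 lay above Otx1 without overlap. In day 3 control libraries Lhx2, at 0.447 ± 0.108 TPM, came next after Foxb1, and the remaining 7 genes were at 0.233 TPM or below. In day 5 control libraries the order after Foxb1 was Lhx2 (1.51 ± 0.627), Fezf2 (0.760 ± 0.271), Emx2 (0.603 ± 0.429) and Fezf1 (0.137 ± 0.0569), with overlap between Lhx2 and Fezf2 and between Fezf2 and Emx2. In day 5 Dox libraries Fezf2, at 2.48 ± 0.374 TPM, came next after Foxb1 and above Lhx2, at 1.58 ± 0.323 TPM, without overlap. Fezf1 followed at 0.473 ± 0.134 TPM and overlapped Emx2, at 0.337 ± 0.176 TPM.

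**Figure D1:**
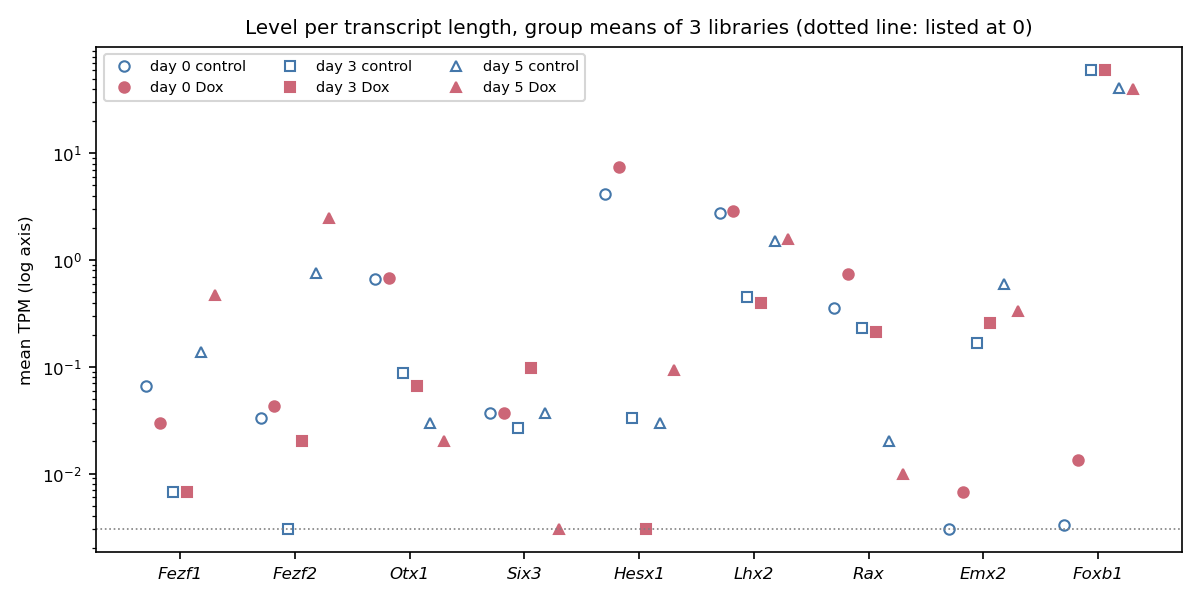
Mean TPM of each gene in the 6 groups, 3 libraries each, on a log axis, with control groups as open blue symbols, Dox groups as filled red symbols, and points on the dotted line listed at 0. Foxb1 is the only gene above 10 TPM, and Fezf1 and Fezf2 have their highest point in the day 5 Dox group.

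Fezf1 and Fezf2 passed the test as higher with Dox at day 5. They were the only 2 of the 8 tested members that passed in any comparison of Dox with control. The Fezf1 call was close to the threshold and not independent of the filter on low counts, as given below. Both genes encode zinc finger repressors of the anterior neural plate that act in forebrain patterning. Fezf2 is known also for specifying deep-layer neurons of the cortex. At day 5, 843 of 17795 tested genes (4.74%) differed with Dox at an adjusted p under 0.05, and 2.39% of tested genes were higher. The members were chosen with earlier results of these data known, so the 2 of 8 are not read as an excess over that share. The median log2 fold change over the 8 tested members was 0.00, the same as over all genes tested.

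Fezf2 had 25, 47 and 30 counts in the 3 day 5 control libraries and 93, 128 and 116 in the 3 Dox libraries, in replicate order. As CPM this was 1.04 ± 0.394 against 3.36 ± 0.537. Every Dox library lay above every control library. The increase was 3.25-fold (log2 fold change 1.70, SE 0.29, edgeR adjusted p = 0.00208), and the call held under all 27 alternatives, with a log2 fold change between 1.52 and 2.05.

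Fezf1 had 4, 10 and 7 counts in the day 5 control libraries and 15, 26 and 29 in the Dox libraries, or 0.211 ± 0.0945 against 0.695 ± 0.208 CPM. The groups did not overlap, and the increase was 3.27-fold (log2 fold change 1.71, SE 0.47, edgeR adjusted p = 0.0418). The call was close to the threshold. It held on leaving out day 0 control replicate 3, day 0 Dox replicate 2, day 0 Dox replicate 3 or day 5 Dox replicate 1, and it was lost on leaving out any other of the 18 libraries, with adjusted p up to 0.201 and a log2 fold change between 1.5 and 2.1. Without a filter on low counts the adjusted p was 0.0615. Fezf1 passed that filter only through its day 5 Dox libraries, the group where it was high. Its call is therefore not independent of the filter.

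At day 0 and day 3 both genes were near the limit of detection. Fezf1 had 2, 4 and 4 counts in day 0 control libraries and 2, 0 and 2 in day 0 Dox libraries, and 0, 1 and 0 in both day 3 groups. Fezf2 had 1, 1 and 2 counts in day 0 control libraries, 2, 1 and 2 in day 0 Dox libraries, 0 in all 3 day 3 control libraries and 0, 1 and 2 in day 3 Dox libraries. From day 3 to day 5 Fezf2 was at least 36.8-fold higher in control libraries, against a floor of 3 counts over the group. In Dox libraries the pooled ratio from day 3 to day 5 was 106 for Fezf2 and 66.2 for Fezf1, with 95% counting intervals of 36.1 to 518 and 11.5 to 2650. Intervals and floors here cover counting error only. These low counts at the earlier days limit any test of whether the Dox effect differed between days. For the difference of the Dox effect at day 5 from that at day 0, the log2 value was 2.84 for Fezf1 and 1.28 for Fezf2 (edgeR adjusted p = 0.127 and 0.606). For day 5 minus day 3 it was 1.57 for Fezf1 and -1.46 for Fezf2 (edgeR adjusted p = 0.965 and 0.833).

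The starts of Fezf1 and Fezf2 are shown because these members passed the test with Dox at day 5, Fezf1 within the limits given above. The windows run from 250 bases before to 50 bases after the start in RefSeq on build GRCm38.p6, at chr6:23248215-23248514 for Fezf1 and chr14:12345816-12346115 for Fezf2, both on the minus strand and printed 5′ to 3′. In GENCODE M21 the genes span chr6:23245044-23248362 and chr14:12342094-12348189, so the Fezf1 window crosses the upstream end of its gene and the Fezf2 window lies inside the span of its gene. Capitals mark matches, on either strand, to the CCAAT box (CCAAT), the GC box (GGGCGG), the TATA box (TATAAA), the homeodomain core (TAATTA), the TCF/LEF core (CTTTGA) or the nuclear receptor half-site (AGGTCA).
Fezf1: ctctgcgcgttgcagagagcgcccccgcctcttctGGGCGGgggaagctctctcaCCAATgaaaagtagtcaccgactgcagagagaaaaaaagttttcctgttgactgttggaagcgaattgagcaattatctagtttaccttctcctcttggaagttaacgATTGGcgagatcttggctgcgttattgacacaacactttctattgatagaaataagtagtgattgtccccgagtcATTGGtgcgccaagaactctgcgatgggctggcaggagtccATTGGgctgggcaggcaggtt
Fezf2: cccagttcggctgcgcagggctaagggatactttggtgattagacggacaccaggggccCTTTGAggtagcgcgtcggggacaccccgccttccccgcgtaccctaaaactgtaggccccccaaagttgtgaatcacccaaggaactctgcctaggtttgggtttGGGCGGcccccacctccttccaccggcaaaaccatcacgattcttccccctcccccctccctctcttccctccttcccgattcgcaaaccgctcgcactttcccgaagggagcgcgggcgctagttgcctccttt

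The Fezf1 window held the CCAAT box at 4 places, 1 on the gene's strand and 3 on the other (read there as ATTGG), and 1 GC box. The Fezf2 window held 1 GC box and 1 TCF/LEF core. No letters of 2 matches overlapped in either window. Over 32851 promoter windows of the same length, 37.4% held the CCAAT box, 35.7% the GC box, 13.6% the TATA box, 5.30% the homeodomain core, 16.0% the TCF/LEF core and 16.3% the nuclear receptor half-site. GC content was 50% for Fezf1 and 61.3% for Fezf2, against a median of 52.7% over all windows. GC skew, the excess of G over C on the gene's strand divided by their sum, was 0.107 for Fezf1 and -0.217 for Fezf2, with 74.6% and 6.00% of all windows lower. Of the 9 members, 6 had a window in this table, the others being Emx2, Hesx1, Lhx2 and Six3.

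**Figure D2:**
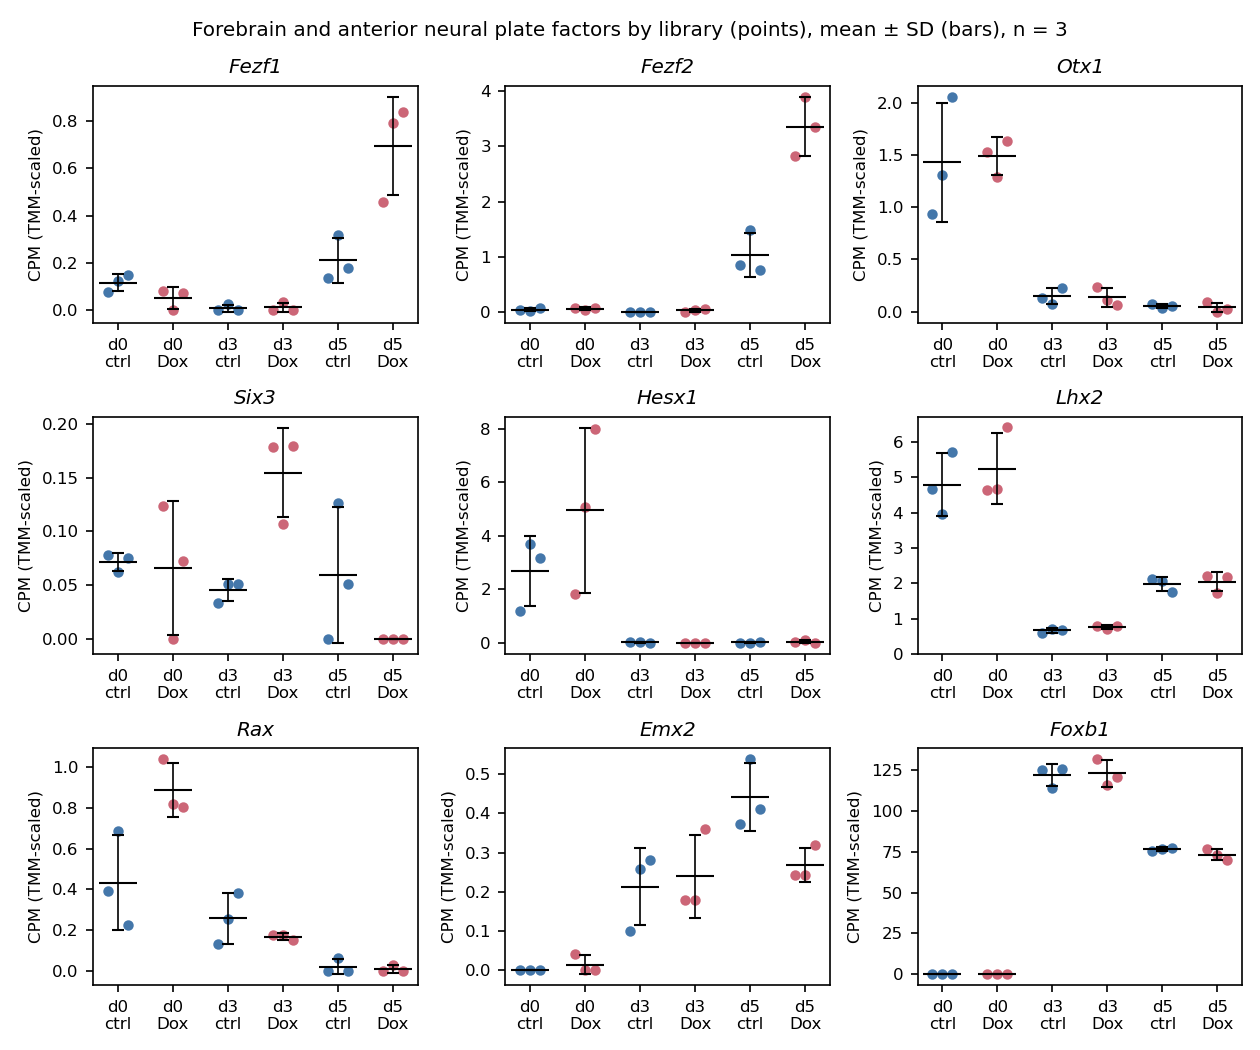
TMM-scaled CPM of each of the 9 genes by library, with control libraries as blue points, Dox libraries as red points, and the mean and SD of 3 libraries as bars. Each gene has its own linear axis, and for Fezf1 and Fezf2 the 3 Dox libraries of day 5 lie above the 3 control libraries.

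Lhx2 and Emx2, which act in the growth and patterning of the cortex and hippocampus, did not pass the test with Dox on any day. Lhx2, a LIM homeobox factor also needed for the eye field, had 63, 65 and 68 counts in day 5 control libraries and 73, 57 and 76 in day 5 Dox libraries. The means were 1.98 ± 0.204 and 2.05 ± 0.271 CPM, the groups overlapped, and the log2 difference was 0.06 with a 95% interval from -0.35 to 0.46. Lhx2 was highest in stem cells, with 4.79 ± 0.891 CPM in day 0 control libraries, fell 7.06-fold to 0.669 ± 0.0636 CPM at day 3 (edgeR adjusted p = 2.48e-10) and rose 2.92-fold to day 5 (edgeR adjusted p = 2.63e-06). The Dox libraries followed the same course, from 5.25 ± 1.01 to 0.766 ± 0.0469 and then 2.05 ± 0.271 CPM.

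Emx2 is a homeobox factor of the dorsal forebrain. Its counts in day 5 control libraries were 11, 17 and 16, and in day 5 Dox libraries 8, 8 and 11. In CPM the Dox libraries, at 0.268 ± 0.0427, lay below the control libraries, at 0.441 ± 0.0868, without overlap. This difference did not pass the test (log2 -0.71, 95% interval -1.65 to 0.24, edgeR adjusted p = 0.483). Groups without overlap at day 5 were found for 3 of the 8 tested members (Fezf1, Fezf2 and Emx2) and for 26.1% of all tested genes, so nothing is read from the lack of overlap. Emx2 had 0 counts in the 3 day 0 control libraries and 3, 10 and 11 at day 3, at least 6.25-fold higher (edgeR adjusted p = 0.000145). An antisense transcript, Emx2os, overlaps it by 264 bases and had at most 12 counts in a library.

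Hesx1, Otx1, Six3 and Rax mark the earliest anterior neural plate and eye field, and all 4 were at or near 0 by day 5. Hesx1, a homeobox repressor needed for forebrain and pituitary formation, had 31, 118 and 85 counts in day 0 control libraries and 44, 130 and 219 in day 0 Dox libraries. The libraries of each day 0 group spread widely and the groups overlapped, at 2.69 ± 1.31 and 4.96 ± 3.08 CPM (log2 0.88, 95% interval -0.14 to 1.90, edgeR adjusted p = 0.490). Between libraries of the same replicate number the Dox library was higher in 3 of 3 pairs, and a fit with the replicate block gave a log2 value of 0.83 (edgeR adjusted p = 0.250). At day 3 Hesx1 had 1, 1 and 0 counts in control libraries and 0 in all 3 Dox libraries. In Dox libraries this was at least 161-fold lower than at day 0 (edgeR adjusted p = 3.28e-07), against the same floor.

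Otx1, a homeobox factor of the forebrain and midbrain, had 24, 42 and 55 counts in day 0 control libraries and 37, 33 and 45 in day 0 Dox libraries. The groups overlapped at 1.43 ± 0.572 and 1.49 ± 0.182 CPM. It fell 9.49-fold from day 0 to day 3 in control libraries and 10.6-fold in Dox libraries (edgeR adjusted p = 5.17e-06 and 4.53e-06). By day 5 it had 2, 1 and 2 counts in control libraries and 3, 0 and 1 in Dox libraries.

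Rax, the homeobox factor that sets up the eye field, had 10, 22 and 6 counts in day 0 control libraries and 25, 21 and 22 in day 0 Dox libraries. In CPM the Dox libraries, at 0.886 ± 0.131, lay above the control libraries, at 0.433 ± 0.233, without overlap. As for Emx2, nothing is read from the lack of overlap. The difference did not pass the test (log2 1.00, SE 0.45, unadjusted p = 0.0402, edgeR adjusted p = 0.372). From day 3 to day 5 Rax fell in both arms, from 0.258 ± 0.126 to 0.0211 ± 0.0366 CPM in control libraries (edgeR adjusted p = 0.00102), and from 0.169 ± 0.0162 to 0.0102 ± 0.0176 CPM in Dox libraries (edgeR adjusted p = 0.00349).

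Six3, a homeobox repressor of Wnt genes in the forebrain, never exceeded 6 counts in a library. It had 1, 2 and 2 counts in day 3 control libraries and 6, 3 and 6 in day 3 Dox libraries. At day 5 it had 0, 4 and 2 counts in control libraries and 0 in all 3 Dox libraries. The day 3 groups did not overlap in CPM and the day 5 groups did, and nothing is read from this. Without a filter on low counts the edgeR adjusted p was 1.00 for Dox against control at day 3 and 0.258 at day 5. Its antisense neighbour Six3os1 overlaps it by 4791 bases and had at most 9 counts in a library.

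Foxb1 changed with the day and not detectably with Dox. Its counts at day 3 were 3773, 4431 and 4911 in control libraries and 4427, 3255 and 4018 in Dox libraries, or 122 ± 6.74 against 123 ± 8.01 CPM. At day 5 its counts were 2222, 2429 and 3016 in control libraries and 2517, 2402 and 2432 in Dox libraries, or 76.6 ± 1.18 against 73.3 ± 3.18 CPM. The groups overlapped on both days. The 95% interval of the log2 difference ran from -0.13 to 0.16 at day 3 and from -0.21 to 0.08 at day 5, the narrowest of the 8 tested members. In stem cells it had 0 or 1 count in each of the 6 libraries, and from day 3 to day 5 it fell 1.59-fold in control and 1.68-fold in Dox libraries (edgeR adjusted p = 4.77e-08 and 1.01e-08).

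The antisense gene B230323A14Rik overlaps Foxb1 by 2201 bases, and whether the authors' counting used strand is not given in the sources used here. It had 34 to 61 counts in day 3 libraries and 132 to 199 in day 5 libraries. It rose 3.31-fold from day 3 to day 5 in control libraries (edgeR adjusted p = 1.31e-06), while Foxb1 fell.

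**Figure D3:**
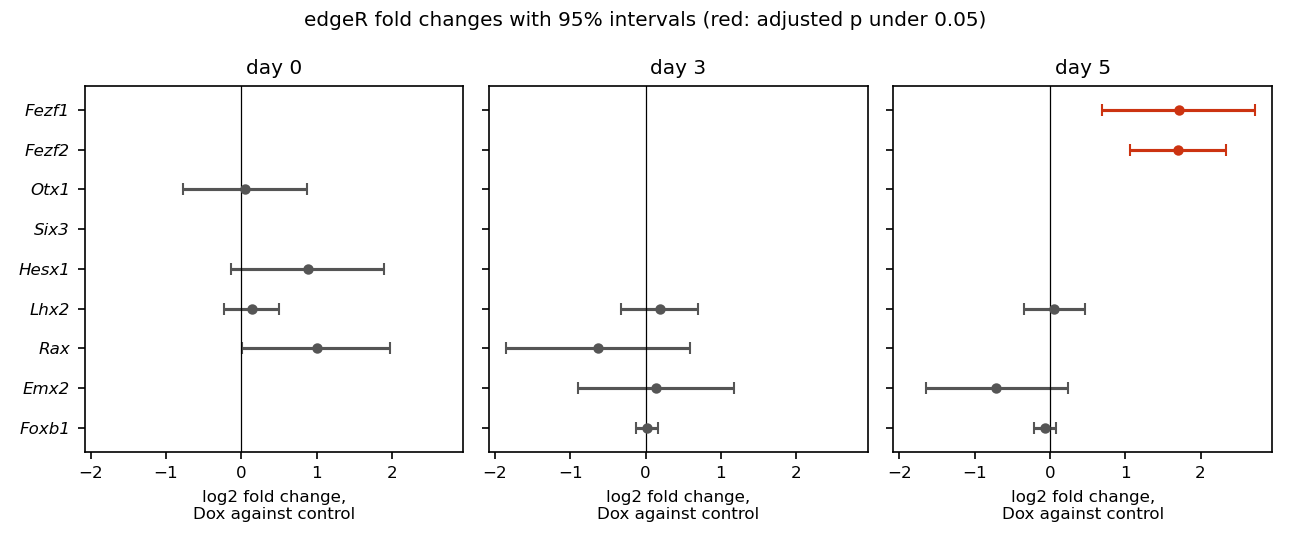
Log2 fold change of Dox against control at each day for members with a mean of at least 0.2 CPM in either group. Points are edgeR values with approximate 95% intervals computed from the F statistic, in red where the adjusted p was under 0.05. Only Fezf1 and Fezf2 at day 5 are red, and Foxb1 has the narrowest interval at day 3 and day 5.

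With Dox, 0 of the 8 tested members passed the edgeR test at day 0, against 1.04% of all tested genes (185 genes, and 313 with the replicate number as a block), and 0 passed at day 3, against 0.0169%. At an unadjusted p under 0.05 the count was 1 at day 0 (Rax) and 1 at day 3 (Fezf2, which had 3 counts in all there), against 2197 of all 17795 genes (12.3%) and 432 (2.43%). DESeq2 and limma-voom also called 0 members on both days. Tests of the difference of the Dox effect between days called 0 members in each of 3 pairs by all 3 tools, against 0.0562% of all genes (10 genes, and 35 with the block) for day 3 minus day 0, 3.28% for day 5 minus day 0 and 0.820% for day 5 minus day 3 in edgeR. At an unadjusted p under 0.05 these counts were 1, 1 and 0, against 1433 (8.05%), 2704 (15.2%) and 1479 (8.31%) of all genes. A Dox effect on Fezf1 and Fezf2 that is particular to day 5 was therefore not shown.

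The day itself moved most members. In control libraries from day 0 to day 3, Emx2 and Foxb1 rose, against 37.2% of all tested genes higher, and Fezf1, Fezf2, Otx1, Hesx1 and Lhx2 fell, against 36.3% lower. For Fezf1 and Fezf2 that fall rests on 10 and 4 counts over the day 0 group. In Dox libraries Emx2 and Foxb1 rose (36.7% of all genes higher) and Otx1, Hesx1, Lhx2 and Rax fell (35.9% lower). From day 3 to day 5, Fezf1, Fezf2 and Lhx2 rose and Rax and Foxb1 fell in both arms. The shares of all tested genes were 31.7% higher and 33.1% lower in control libraries, and 32.2% higher and 32.9% lower in Dox libraries. With 8 tested members against shares near 1 gene in 3, nothing particular to them is read from these counts.

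The genes around the 9 members did not rise with Fezf1 and Fezf2 as a group. At day 5 with Dox, 2916 of all 17795 tested genes had an unadjusted p under 0.05 in either direction, to be set beside the list counts below. The lists were chosen with earlier results of these data known, so no list count is read as an excess. Of 28 other anterior neural plate and forebrain factors 18 were tested, and at day 5 with Dox edgeR called 0 higher and 2 lower, with a median log2 fold change of 0.18. At an unadjusted p under 0.05, 4 were higher and 3 lower, DESeq2 called 1 higher and 3 lower, and limma-voom 0 higher and 3 lower. The lower ones were Foxd1, a forkhead factor of the optic chiasm region, at 7.58 ± 0.563 against 14.4 ± 0.953 CPM (edgeR adjusted p = 0.00315), and Pax6, a paired-box factor of the forebrain, eye and spinal cord, at 195 ± 5.90 against 262 ± 8.49 CPM (edgeR adjusted p = 0.0198). The Pax6 call was lost without day 5 control replicate 2 or 3 or without any 1 of the day 5 Dox libraries, with adjusted p up to 0.105. Otx2, the factor that anterior identity depends on, was at 18.4 ± 3.51 CPM in day 0 control libraries and 0.172 ± 0.127 CPM at day 5. Six6, an eye field factor, had 1 count over all 18 libraries. In control libraries from day 3 to day 5, 12 of these 18 factors rose and 6 fell, and the counts were the same in Dox libraries.

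Of 18 tested head organiser factors and secreted or receptor-level antagonists, edgeR called 1 higher and 2 lower with Dox at day 5. At an unadjusted p under 0.05, 4 were higher and 5 lower, and DESeq2 called 1 higher and 3 lower and limma-voom 2 higher and 4 lower. The secreted Wnt antagonist Sfrp1 rose 1.51-fold to 332 ± 12.7 CPM (edgeR adjusted p = 0.00414). Foxa2, a forkhead factor of node, floor plate and endoderm, fell 2.53-fold to 0.710 ± 0.0949 CPM (edgeR adjusted p = 0.00280). Sfrp5, another Wnt antagonist, fell 2.7-fold to 5.72 ± 4.26 CPM (edgeR adjusted p = 0.0120). For Sfrp5 the Dox libraries spread from 3.23 to 10.6 CPM, the call was lost without day 5 Dox replicate 2 or 3 (adjusted p 0.0811 and 0.0863), and without day 5 Dox replicate 1 the log2 fold change was -2.24.

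Among more posterior genes edgeR called 1 midbrain-hindbrain factor higher and 2 posteriorising genes lower with Dox at day 5. Among 8 tested midbrain-hindbrain factors, Egr2, known from hindbrain segments, rose with Dox at day 5 and 0 fell by edgeR (2 at an unadjusted p under 0.05, and 1 each by DESeq2 and limma-voom). Egr2 went from 0.232 ± 0.215 to 1.44 ± 0.562 CPM (6.15-fold, edgeR adjusted p = 0.0424). The Egr2 call was lost without any 1 of the 6 day 3 libraries, day 5 control replicate 1 or 3, or day 5 Dox replicate 2 or 3, with adjusted p up to 0.2. Among 10 tested posteriorising signals and factors, Aldh1a2, the enzyme that makes retinoic acid, fell 3.46-fold to 3.94 ± 1.59 CPM and the trunk gene Hoxb9 fell 2.06-fold to 119 ± 13.1 CPM (edgeR adjusted p = 8.45e-05 and 5.58e-05). At an unadjusted p under 0.05, 7 of the 10 were lower and 1 was higher, against 2916 of all 17795 tested genes in either direction. DESeq2 called 4 lower and 1 higher, and limma-voom 2 lower and 0 higher. The median log2 fold change over the 10 was -0.95, against 0.00 over all genes tested. This list was chosen with earlier results of these data known, so no excess is read from these values. Of 10 pan-neural progenitor genes edgeR called 1, Fabp7, a lipid-binding protein of radial glia, which rose 2.06-fold to 25.8 ± 2.19 CPM (edgeR adjusted p = 9.65e-05). DESeq2 and limma-voom called 2 of the 10 higher each, 4 were higher at an unadjusted p under 0.05, and 0 were lower by any of these. At day 0 the single edgeR call over these 5 lists was Cdx1, a posterior homeobox factor, which fell 3.15-fold (edgeR adjusted p = 0.000586; 0.345 when only the day 0 libraries were fitted). Over the same lists at day 0, 6 genes were higher and 5 lower at an unadjusted p under 0.05, DESeq2 called 3 higher and 3 lower, and limma-voom 0 higher and 1 lower. At day 3 edgeR called 0 genes of the lists (3 higher and 2 lower at an unadjusted p under 0.05, and 0 by DESeq2 and limma-voom).

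**Figure D4:**
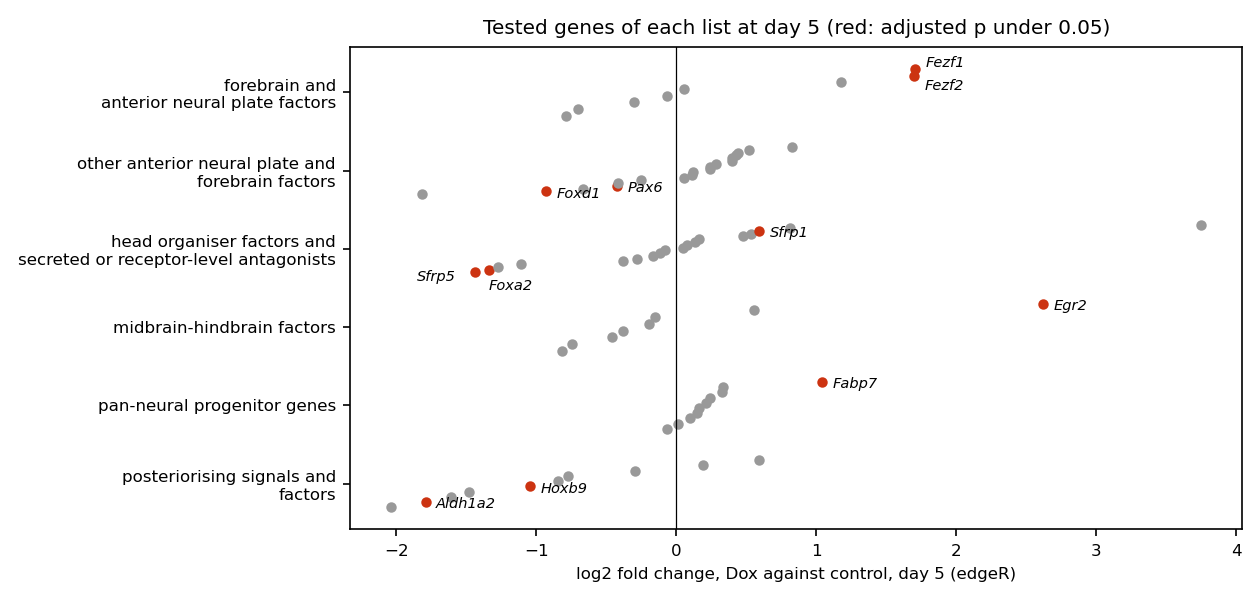
Log2 fold change of Dox against control at day 5 for each tested gene of the 9 members (top) and of 5 lists of related genes, red and named where the edgeR adjusted p was under 0.05. Fezf1 and Fezf2 lie near 1.7, while the other forebrain factors have 2 red points, both below 0.

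Some markers of several cell types passed the edgeR test with Dox at day 5 beside Fezf1 and Fezf2. The somite, neural crest and endoderm sums given below overlapped between control and Dox libraries. Summed over 4 neuron markers, the level ran from 25.1 to 28.7 TPM in control and from 41.6 to 52.2 TPM in Dox libraries, and none of the 4 was at 0. Elavl3, Stmn2 and Tubb3 passed the edgeR test as higher, 3 of 4 against 2.39% of all tested genes. The lists were chosen with earlier results of these data known, so the 3 of 4 are not read as an excess over that share. The neuron marker sum ran from 159 to 185 TPM in day 0 libraries and from 45.2 to 49.1 TPM in day 3 libraries. In day 0 control libraries Tubb3 was at 91.4 TPM and Stmn2 at 75.0 TPM, so neither is particular to neurons here. Elavl3 was at 0.967 TPM there, and Dcx had no count in any day 0 library. At day 5 Elavl3 was at 4.63 TPM in control and 11.3 TPM in Dox libraries. Dcx, which did not pass, was at 0.277 and 0.463 TPM. A gain of neurons was not tested, and none is read from these markers. Summed over 5 neural progenitor markers the level ran from 731 to 738 TPM in control and from 746 to 820 TPM in Dox libraries, with Pax6 lower. Summed over 5 surface ectoderm or placode markers, none of which was at 0 over a day 5 group, it ran from 9.74 to 11.6 TPM in control and from 7.42 to 9.35 TPM in Dox libraries. Summed over 5 somite or presomitic mesoderm markers it ran from 89.3 to 103 TPM in control and from 72.5 to 89.7 TPM in Dox libraries, with Msgn1 at 0 in both groups, Meox1 1.42-fold lower and Pax3, known also from the dorsal neural tube, 1.70-fold higher (edgeR adjusted p = 0.0289 and 0.00160). Summed over 4 neural crest markers, none at 0, it ran from 6.55 to 8.12 TPM in control and from 7.82 to 9.95 TPM in Dox libraries. Tfap2b was 3.62-fold higher (edgeR adjusted p = 0.0303), from 0.237 to 0.36 CPM in control libraries and from 1.07 to 1.1 CPM in Dox libraries. It had at most 2 counts over any day 0 or day 3 group. Tfap2b passed the filter on low counts only through the day 5 Dox libraries, so its call is not independent of the filter. Over 5 definitive endoderm or gut markers, none at 0, the sum ran from 6.55 to 7.89 TPM in control and from 5.59 to 8.10 TPM in Dox libraries, with Foxa2 lower. Over 6 visceral or primitive endoderm markers the sum was at most 1.92 TPM in any day 5 library. Over 4 cardiac or endothelial markers it ran from 1.43 to 1.74 TPM in control and from 1.42 to 1.64 TPM in Dox libraries. With Dox at day 5 edgeR called 0 markers of those lists and 0 of the naive stem cell and surface ectoderm lists. The part of these cell types in the Fezf1 and Fezf2 results was not tested.

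The genes whose levels followed each member most closely were found by Pearson's r of log2(CPM + 1) over the 18 libraries, whose points share the course of days. For Fezf1 they were Cyp26b1 (r = 0.971) and Fezf2 (r = 0.953), and for Fezf2 they were Aspdh (0.989) and Masp1 (0.981). For Foxb1 they were Tmem246 and Hs6st2 (0.999 each), for Lhx2 Mpzl1 (0.992) and St3gal4 (0.990), and for Otx1 Trpc6 (0.991) and Klhl34 (0.989). For Hesx1 they were Igfbp7 (0.989) and Eci3 (0.984), for Rax Rnf39 (0.970) and Catsperz (0.954), and for Emx2 Prpf19 and Pik3r2 (0.935 each). Over the 6 day 5 libraries alone the closest gene to Fezf1 was Egr2 (0.999) and the closest to Fezf2 was Rnf112 (0.998). The genes compared were those of the 17795 tested that have a symbol other than a placeholder and vary over the libraries. With so many genes compared over 6 points such values are reached for every tested member, the closest gene having r between 0.982 and 1.00.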

How the data were processed

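The poly(A) RNA was sequenced from stranded libraries, per the labels' protocols. Trimmomatic, STAR 2.7.10a, RSEM 1.3.3, DESeq2 1.38.2 and build GRCm38 are named, without role, per the submitters' processing notes. Annotation release and strand setting are not given in the sources used here. The deposited tables hold expected counts, estimated per gene by the authors and not scaled to depth, for 1 library each, per the file headers. Between 6.54 and 7.49% of them were not whole, and all were rounded. The authors' TPM values were used to compare levels between genes, and the deposited FPKM values were not used. IDs were matched to GENCODE M21 without version suffix, 55141 of 55401, leaving 260 unmatched.

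The edgeR 4.0.16 quasi-likelihood test (R 4.3.3, TMM scaling, filterByExpr with a count minimum of 10 and a total of 15) was run on all 18 libraries and 17795 genes. It had 12 residual degrees of freedom, with Benjamini-Hochberg adjustment over all genes and a threshold of 0.05. The code was first run on simulated counts in which only well-counted genes were changed. That run does not show how well changes in low-count members are detected. The SE of an edgeR log2 fold change was computed as its absolute value divided by the square root of the F statistic. Its 95% interval used the t distribution with 12 degrees of freedom. These SE and intervals are approximate and need not match the p-values. CPM use TMM-scaled library sizes. Ratios of pooled counts have exact 95% intervals, and folds against a group without counts use a floor of 3 counts over the group. Named genes were all 9 members, Rnaseh1, genes overlapping a member, up to 4 called genes of each related list with the largest change, the 2 most abundant where none was called (not all printed), and the 2 genes closest to each member. Six6 and Otx2 were named for their roles, and marker genes after their values were seen. Some genes of the lists are not reported here and enter no count or sum. Members and lists were chosen with earlier results of these data known. Alternatives were DESeq2 1.42.0, limma 3.58.1 (voom), 2 scalings, 2 filters, fits on the libraries of a contrast alone, a replicate block, TPM, and leaving out each library.

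Deviations from group means were correlated between control and Dox libraries of the same replicate number, which is also the batch in the labels. The correlation was 0.299 to 0.501 at day 0, 0.011 to 0.150 at day 3 and 0.018 to 0.170 at day 5, against -0.481 to 0.150, -0.122 to 0.050 and -0.210 to 0.088 for other numbers. These ranges lay apart at day 0 and overlapped at day 3 and day 5, so the correlations show pairing at day 0 only. Deviations from a group mean also cancel within the group, which by itself pushes other numbers down where the same number is positive. The main tests did not pair the samples.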

Additional observations from a re-analysis of the deposited data

Results flagged for a closer look

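For 6 genes of the related lists, though for none of the 9 members, the Dox effect differed between days by the edgeR test of the difference itself (adjusted p under 0.05). The log2 difference of day 5 from day 0 was -0.94 for Pax6, -1.92 for Sfrp5, -1.36 for Aldh1a2 and -0.87 for Hoxb9 (edgeR adjusted p = 0.00626, 0.0456, 0.0261 and 0.0170). The log2 difference of day 5 from day 3 was -2.25 for the midbrain-hindbrain factor Pax2 and 1.04 for Fabp7 (edgeR adjusted p = 0.0213 and 0.0223). The call for Pax6 held under all 27 alternatives. Leaving out 1 library ended the call for Sfrp5 in 15 of 18 cases (all but day 0 control replicate 1, day 0 Dox replicate 3 and day 5 Dox replicate 1). It ended it for Aldh1a2 without day 0 Dox replicate 3, day 5 control replicate 3 or day 5 Dox replicate 2 or 3, and for Hoxb9 without day 0 Dox replicate 2, day 5 control replicate 3 or day 5 Dox replicate 3. For Pax2 it ended without day 3 control replicate 1 or 3, day 3 Dox replicate 2, day 5 control replicate 2 or 3 or day 5 Dox replicate 2 or 3. For Fabp7 it ended without day 3 control replicate 1 or 2, day 3 Dox replicate 1 or 2, day 5 control replicate 3 or day 5 Dox replicate 2 or 3.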

How the results depend on the processing

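Depth limits most members: outside Foxb1 they had at most 219 counts in a library. The day 5 count of 2 members called with Dox became 1 with DESeq2, without a filter on low counts and at 1 CPM in 3 libraries, and ranged from 1 to 2 on leaving out a library. With DESeq2 Fezf1 had no adjusted p, and at 1 CPM it was not tested. With the replicate block the adjusted p was 0.0314 for Fezf1 and 0.00115 for Fezf2, and the block in the fit of all libraries changed no count of members called. Fitting only the libraries of a contrast gave 4 members for control day 3 against day 0, with or without the replicate block, in place of 7, and 3 with the block for control day 5 against day 3 in place of 5. The 1 CPM filter, which tested fewer members, gave 3 for day 5 against day 3 in control and in Dox libraries in place of 5. For the contrast-only fits the cause was not tested. Uncalled log2 values that changed sign on leaving out a library ranged, for Dox against control, from -0.17 to 0.40 for Otx1 and -0.03 to 0.29 for Lhx2 at day 0, from -0.28 to 0.38 for Emx2 and -0.04 to 0.06 for Foxb1 at day 3, and from -0.03 to 0.16 for Lhx2 at day 5. Differences of the Dox effect ranged from -0.61 to 2.99 for Fezf1 (day 3 minus day 0), -0.10 to 0.22 for Lhx2 (day 3 minus day 0), -0.23 to 0.09 for Lhx2 (day 5 minus day 0) and -0.15 to 3.44 for Fezf1 (day 5 minus day 3), and limma-voom gave 0.27 for Fezf2 (day 5 minus day 3) in place of -1.46. Emx2 in Dox libraries from day 3 to day 5 ranged from -0.03 to 0.58. In TPM the log2 ratio of Lhx2 at day 3 was -0.17. The genes called over all genes ranged across alternatives from 3 to 549 at day 0 (185 as reported), 2 to 98 at day 3 (3) and 410 to 2658 at day 5 (843), and for differences of the Dox effect from 3 to 203 (10), 219 to 995 (584) and 45 to 756 (146) in the order of the text.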
